A study of Homo sapiens with 9 samples.

Results

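In MDA-MB-231 cells, 84 genes were lower than in untreated cells after 8 h of the copper chelator TEPA and then higher than in untreated cells after 24 h. They were chosen from the readout itself. Raw counts were scaled to CPM, the count of a gene set to a common total for every library, and the 3 replicates of each group were averaged. A member had at least 1 CPM untreated, at most 71% of that level (0.71 times) at 8 h and at least 141% of it at 24 h. Of 59453 gene names, 12346 reached 1 CPM untreated after the name exclusions below, and the members were 0.68% of them. A further 12 genes met the 3 limits and were left out by name: 1 with a name starting ZNF, 6 starting LINC, 3 antisense genes, and TIMP3, TIMP4 and LOXL4, with 1 name falling in a pair of these classes. Because all 9 libraries entered the choice, the direction of each member at both times was fixed by the rule and is described here with no test.

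The data were RNA-Seq gene counts of MDA-MB-231, an established mesenchymal-like human triple-negative breast cancer line, with 3 replicates each of untreated cells, cells given TEPA for 8 h and cells given TEPA for 24 h. TEPA is a polyamine that binds copper ions, and the study dissolved it in culture medium. The labels give it at 8 mM, whereas the RNA sequencing methods give 4 mM. A single untreated group served both times, and its harvest time is not given in the sources used here, so that time in culture and treatment cannot be told apart. No label says that replicates came from separate cultures, so spreads and p-values measure only the variation between these libraries. Totals ran from 34633755 to 49342659 counts, so that 1 CPM stood for 34.6 to 49.3 counts. The markers of the line were as labelled, with vimentin (VIM) at 3630 CPM, CD44 at 849 CPM and AXL at 677 CPM untreated, oestrogen receptor (ESR1) at 0.154 CPM, and the progesterone receptor (PGR) at 0. The mesenchymal marker S100A4, itself a member, was at only 9.32 CPM, and ERBB2, listed as low in this line, was at 80.5 CPM.

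Target genes of several signalling systems were among the members. Type I and II interferons act through transcription factors that bind an interferon-stimulated response element in the promoters of antiviral genes. The factor NF-kB turns on cytokine, chemokine and acute-phase genes, and FOXO and p53 factors turn on genes of growth arrest, cell death and autophagy. In tumour cells these programs carry the innate immune output of the cell and its response to stress. In bulk RNA, fewer cells of a type and less RNA per cell cannot be told apart.

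Most members were weakly expressed genes. Their untreated means ran from 1.01 to 350 CPM with a median of 4.31 CPM, against 33.7 CPM over all 12346 genes, and 66 of the 84 (78.6%) lay under 10 CPM, where 24.7% of all genes lay. The 8 h level was 0.145 to 0.71 times untreated, with a median of 0.567 (all genes, 0.978). At 24 h it was 1.413 to 5.08 times untreated, with a median of 1.74 (all genes, 1.03). From 8 h to 24 h the members rose by 2-fold to 35-fold, with a median of 3.13-fold, and 26 members by 4-fold or more. At 8 h, 25 members were at 0.5 times untreated or less, 23 members were at 2 times or more at 24 h, and 11 did both. The opposite pattern, higher at 8 h and lower at 24 h by the same limits, held for 24 genes, while 344 genes were lower at both times and 312 higher at both. The members made up 7.96% of the 1055 genes past the 8 h limit and 7.31% of the 1149 genes past the 24 h limit.

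**Figure D1:**
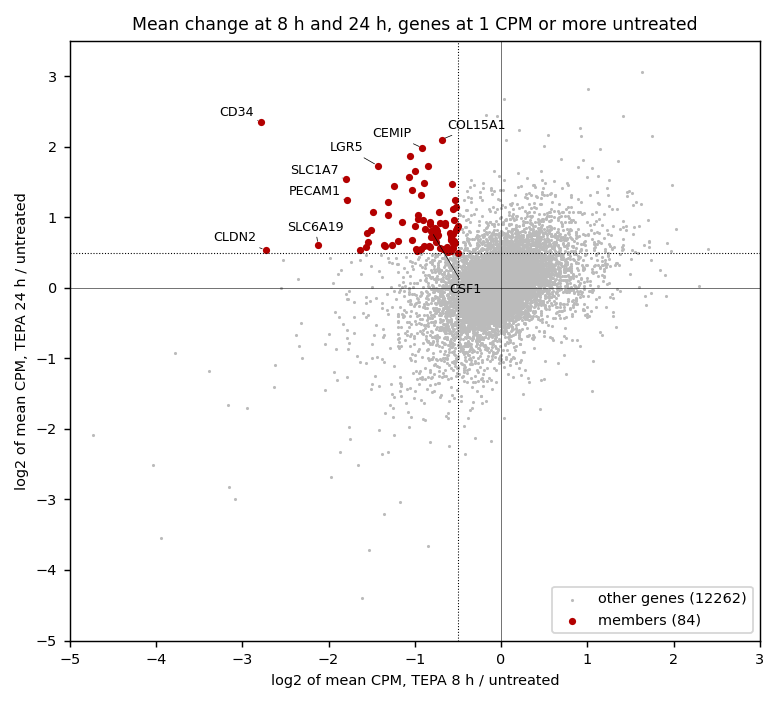
Each point is 1 of 12346 genes with at least 1 CPM untreated, plotted by the log2 ratio of its mean CPM at 8 h (x axis) and at 24 h (y axis) to untreated, with the limits of the rule as dotted lines and 1 gene beyond the axes. The 84 members (red) fill the upper left corner, with CD34 farthest out, at 0.145 times untreated at 8 h and 5.08 times at 24 h.

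The libraries of 1 group did not lie evenly. Relative to each member's untreated mean, the median member was at 1.19 in untreated replicate 1, 0.861 in replicate 2 and 0.949 in replicate 3. Untreated replicate 1 was above the mean for 73 members and replicate 2 below it for 79. The TEPA libraries were closer to each other, with medians of 0.549, 0.563 and 0.568 at 8 h and of 1.71, 1.81 and 1.72 at 24 h. All genes together showed no such offset, with untreated medians of 1.01, 0.993 and 0.998. Without untreated replicate 1 the rule chose 90 genes, 62 of them among the 84, and without untreated replicate 2 it chose 87, 67 of them among the 84. Mitochondrially encoded RNA took 1.79 to 2.91% of the counts untreated, 3.61 to 4.02% at 8 h and 1.89 to 2.02% at 24 h, and the nuclear-retained RNA MALAT1 was at 8.1 to 11.6, 37.9 to 40.6 and 12.2 to 15.9 CPM in the same order. These measures moved with the 8 h libraries, and their part in the members' levels was not tested, apart from leaving mitochondrial genes out of the library totals, which kept 80 of the 84 members.

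For 81 members every 8 h library was below every untreated library, against 35.4% of all genes, and for 77 members every 24 h library was above every untreated library, against 35.6% of all genes. Both held for 75 members, against 7.27% of all genes, and the other 9 had an overlap at one or both times: FBXO2 and FOS at 8 h, CXCL1, DEPP1, CLDN2, KLRC3, SLC6A19 and FAM3C2P at 24 h, and SCIN at both. All 84 had every 24 h library above every 8 h library, against 40.7% of all genes. In the edgeR quasi-likelihood fit of all 16556 genes tested, at a Benjamini-Hochberg adjusted p under 0.05, 80 members were called lower at 8 h (24.5% of all genes), 79 higher at 24 h (25.7%) and 84 higher at 24 h than at 8 h (26%). The rule used these contrasts, so nothing is read from the counts. FAM3C2P, FOS, S100A5 and SCIN were not called at 8 h, nor AC005520.2, CLDN2, CXCL1, KLRC3 and SCIN at 24 h. Of all genes, 571 (3.45%) were called in both directions of the pattern against untreated, and 76 members were among them.

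**Figure D2:**
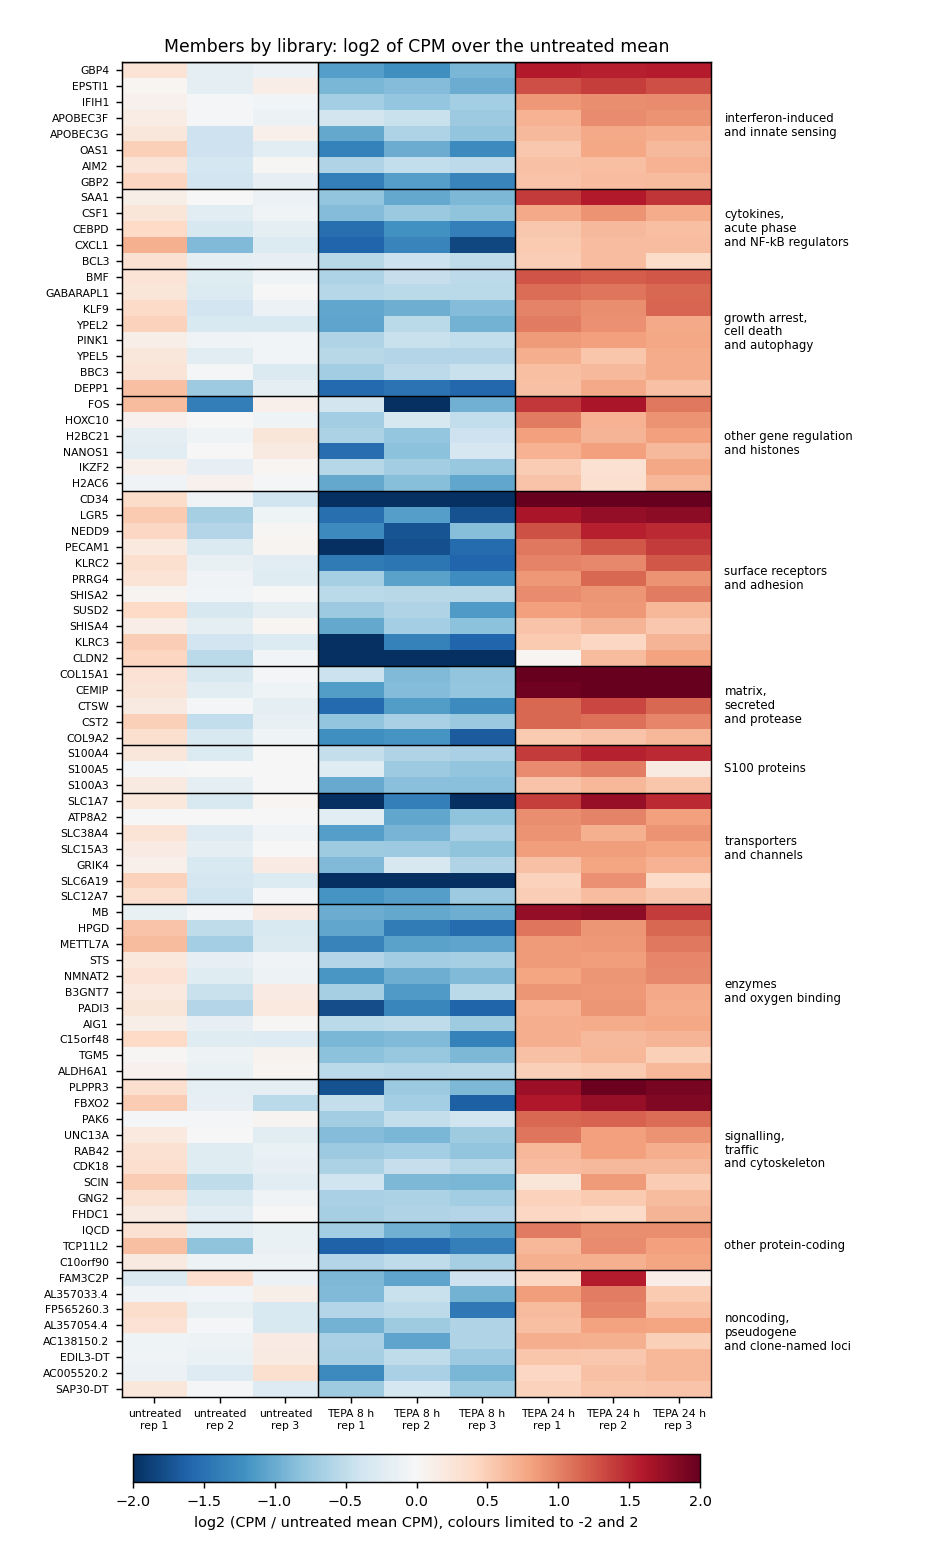
Rows are the 84 members grouped by role, columns are the 9 libraries, and colour is log2 of a library's CPM over the untreated mean of that gene (blue lower, red higher, limited to -2 and 2). All 8 h columns are blue and all 24 h columns red or near white, and untreated replicate 1 is redder than untreated replicate 2.

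A description that does not reuse the same libraries came from leaving 1 replicate number out of all 3 groups, choosing genes on the remaining 6 libraries and reading the left-out libraries. With replicate 1 left out, 98 genes were chosen (60 of them members), and in the left-out libraries 98 of them were below untreated at 8 h and 78 above it at 24 h, with median ratios of 0.437 and 1.31. With replicate 2 left out, 86 genes were chosen (61 members), 79 were lower and 86 higher, with medians of 0.739 and 2.19. With replicate 3 left out, 86 genes were chosen (69 members), 83 were lower and 86 higher, with medians of 0.598 and 1.93. Both directions together held for 78, 79 and 83 genes, where 19.9%, 22.9% and 26% of all genes had both. Past both limits of the rule in the left-out libraries were 37, 34 and 58 genes, against 0.706%, 0.849% and 0.89% of all genes. The size of the left-out ratios followed the untreated library: against the high replicate 1 the 8 h decrease was larger and the 24 h increase smaller, and against the low replicate 2 the reverse.

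**Figure D3:**
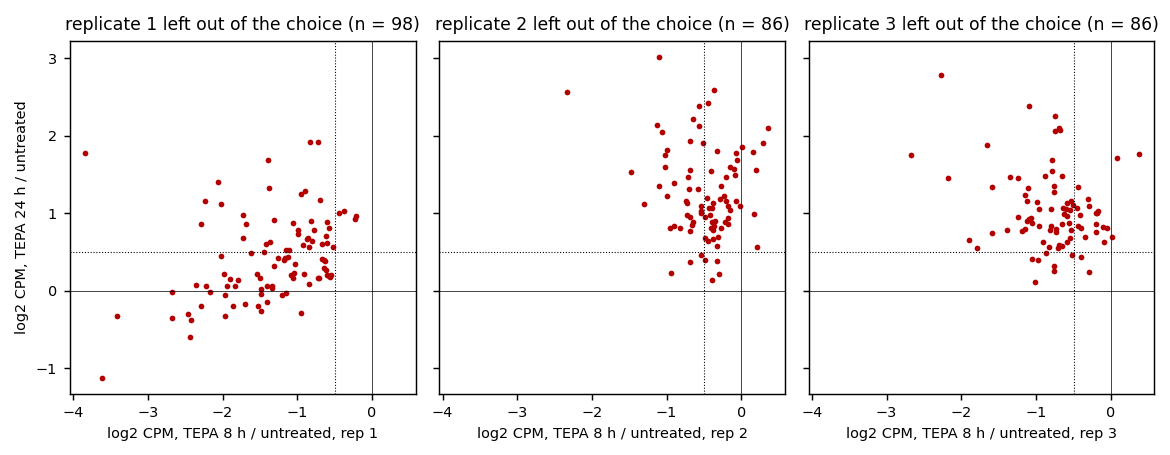
Each panel shows the genes chosen without 1 replicate number, at the log2 CPM ratios to untreated of the left-out libraries at 8 h (x axis) and 24 h (y axis), with dotted lines at the limits of the rule. Most points lie in the upper left quadrant, 78 of 98 for replicate 1, 79 of 86 for replicate 2 and 83 of 86 for replicate 3.

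Genes of interferon response and innate sensing gave 8 members: GBP2, GBP4, IFIH1, EPSTI1, APOBEC3F, APOBEC3G, OAS1 and AIM2. They stood at 0.418 to 0.702 times untreated at 8 h (median 0.55) and at 1.52 to 2.97 times untreated at 24 h (median 1.72), and in all 8 no library overlapped between groups at either time (all genes, 7.27%). GBP2, a guanylate-binding GTPase of cell-autonomous defence, was at 51.3, 29.4 and 34.1 CPM in untreated cells, 14.8, 17.8 and 15.4 CPM at 8 h and 56.8, 58.7 and 59.3 CPM at 24 h. All of its 8 h libraries lay far below the untreated ones, while the highest untreated library came close to the 24 h range. Its means were 38.3 ± 11.5 CPM (SD, n = 3) untreated, 16 ± 1.56 CPM at 8 h and 58.3 ± 1.35 CPM at 24 h, 2.39-fold lower and then 1.52 times untreated. GBP4, its neighbour on chromosome 1, was at 10.4, 7.52 and 7.96 CPM without TEPA, 4.03, 3.69 and 4.6 CPM after 8 h and 26, 25.3 and 25.6 CPM after 24 h. The 24 h libraries were within 1 CPM of each other and 6.25-fold above 8 h, the largest such rise of the 8 genes. IFIH1 encodes MDA5, a cytosolic sensor of long double-stranded RNA, and was at 14.7, 13.3 and 13.3 CPM untreated, then 8.57, 8.08 and 8.64 CPM at 8 h and 25.2, 26.4 and 26.4 CPM at 24 h, with each group tightly clustered and well apart. EPSTI1, an interferon-induced gene of breast epithelium and stroma, was at 7.49, 6.43 and 8.01 CPM in untreated cells, 3.88, 4 and 3.69 CPM at 8 h and 17.8, 19 and 17.9 CPM at 24 h. All of its 24 h libraries lay above 17 CPM and no untreated one above 9 CPM. The cytidine deaminases APOBEC3F and APOBEC3G, which restrict retroviruses, were both among the 8. APOBEC3F was at 7.25 ± 0.674 CPM (SD, n = 3) untreated, 5.09 ± 0.648 CPM at 8 h and 13.1 ± 1.14 CPM at 24 h. APOBEC3G was lower throughout, at 2.91 ± 0.634 CPM (SD, n = 3) untreated, 1.67 ± 0.237 CPM at 8 h and 4.77 ± 0.172 CPM at 24 h. OAS1, which makes the second messenger that activates RNase L, was 2.29-fold lower at 8 h and 1.58 times untreated at 24 h, and AIM2, a cytosolic DNA sensor, 1.45-fold lower and 1.55 times untreated.

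Paralogs next to these members did not all follow. In the GBP cluster on chromosome 1 (hg38), GBP2 (chr1:89106132-89150456, minus strand) and GBP4 (chr1:89181144-89198942, minus strand) were members. GBP5 had ratios of 0.382 and 1.38 at 8 h and 24 h, just short of the 24 h limit, GBP1 had 0.704 and 0.907, and GBP3 0.856 and 1.08. In the APOBEC3 cluster on chromosome 22, APOBEC3C was at 0.686 and then 0.87, and APOBEC3B at 0.907 and 1.1. How the counting treated reads shared between such similar copies was not tested, so the values of single copies are uncertain.

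Beyond the members, 51 further interferon-stimulated genes with at least 1 CPM untreated were looked at, from a list written after the members had been seen and so given no test. They had median ratios of 0.792 at 8 h and 1.2 at 24 h. At 8 h, 46 of the 51 were below untreated and 21 were at 0.71 or less, with 0 past the upper limit (all genes, 8.55% and 6.7%). At 24 h, 41 were above untreated and 9 past the upper limit, with 0 at 0.71 or less (all genes, 9.31% and 7.34%). IFIT2 went from 52.1 to 25.6 and 64.7 CPM (untreated, 8 h and 24 h means), SAMD9L from 40.4 to 19.8 and 52 CPM, and MX1 from 7.85 to 5.33 and 10.8 CPM, each lower at 8 h past the limit and above untreated at 24 h but short of it. ISG15 was at 57.7, 40.8 and 55.6 CPM and IFIT3 at 111, 55.3 and 117 CPM, with 24 h means close to untreated. IRF7 was at 10.5, 11.7 and 20.5 CPM with no lower level at 8 h. The transporter SLC15A3, on the same list, was a member.

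**Figure D4:**
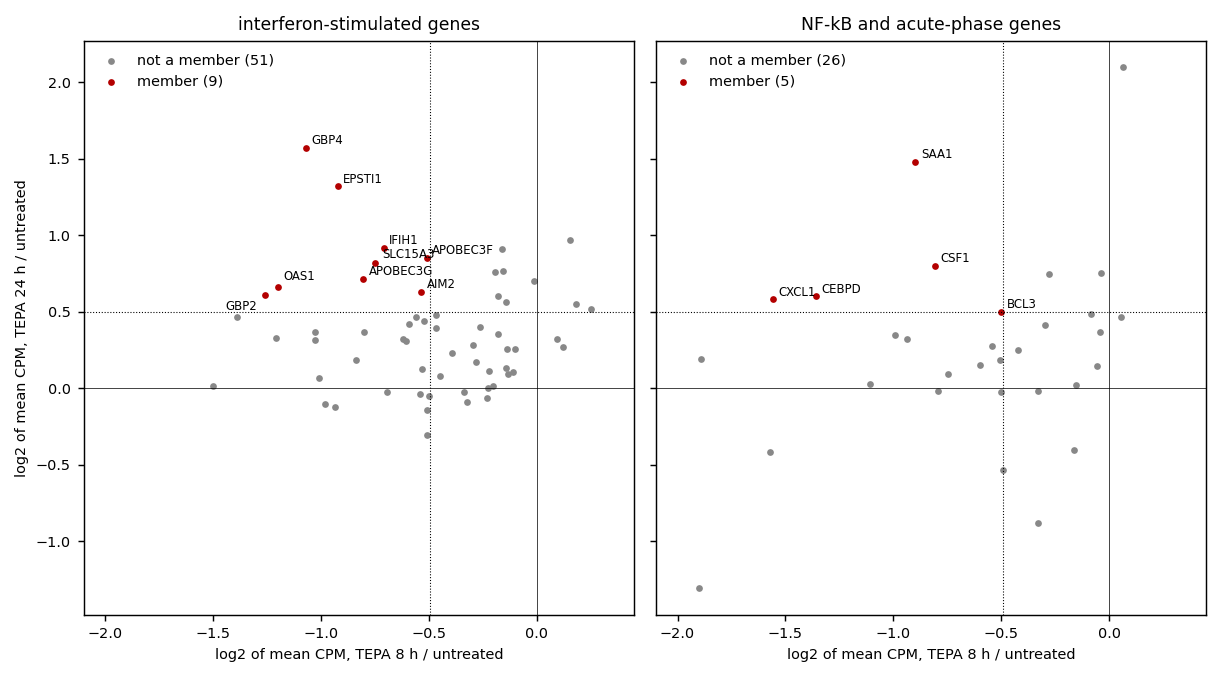
Genes of an interferon-stimulated list (left, 51 non-members in grey and 9 members in red) and of an NF-kB and acute-phase list (right, 26 and 5) by the log2 ratio of mean CPM to untreated at 8 h (x axis) and 24 h (y axis), dotted lines marking the limits of the rule. Of the grey interferon genes 46 lie left of 0 and 41 above 0, and of the grey NF-kB genes 24 and 18.

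Promoter sequence was available for 62 of the 84 members, as RefSeq windows on GRCh38.p14 from 250 bases before to 50 bases after the transcription start. The interferon-stimulated response element core (GAAA, any 2 bases and GAAA again, on both strands) was in the windows of 6 members (9.68%), against 3.65% of all 27305 promoters and 2.85% of the 9393 promoters of genes at 1 CPM or more. It was in 4 of the 5 interferon members that had a window, IFIH1, GBP4, EPSTI1 and AIM2. An NF-kB site was in 8 members (12.9%, against 5.72% of all promoters and 6.62% of those of genes at 1 CPM or more). Among them were both cytokine-group members with a window, CXCL1 and BCL3. A forkhead site, searched as GTAAACA, was in 5 members (8.06%, against 3.41% and 2.21%). Of the 7 members of growth arrest, cell death and autophagy with a window, only 1 had it, DEPP1. A match is a string of letters in a window and says nothing about binding. The windows also differed in base composition. The median share of G and C bases was 59.5% in members, 65.7% in genes at 1 CPM or more and 58.3% in all promoters. Its part in the motif shares here and below was not tested. The 4 stretches shown are from members described with their roles, 1 or more for each of these motifs, with a match upstream of the RefSeq start and in no annotated exon. Each is read 5′ to 3′ on the strand of its gene, with the matched motif in capitals: the response element core in IFIH1 and, as its reverse complement, in AIM2, the NF-kB site in CXCL1 and the forkhead site in DEPP1. The AIM2 stretch lies within a longer AIM2 gene model of GENCODE, outside its exons, and the other stretches lie upstream of their genes.
IFIH1, chr2:162318685-162318745, minus strand: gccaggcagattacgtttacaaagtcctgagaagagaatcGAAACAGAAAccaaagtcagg
AIM2, chr1:159076907-159076996, minus strand: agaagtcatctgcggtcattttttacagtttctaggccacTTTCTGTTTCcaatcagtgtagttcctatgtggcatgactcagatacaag
CXCL1, chr4:73869274-73869363, plus strand: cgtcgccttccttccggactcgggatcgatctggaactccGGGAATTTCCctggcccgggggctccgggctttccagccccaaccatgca
DEPP1, chr10:44978943-44979029, minus strand: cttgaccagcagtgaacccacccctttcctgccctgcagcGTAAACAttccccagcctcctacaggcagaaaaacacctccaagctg

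IFIH1 held the response element core 3 times, of which the match nearest its start is shown and the other pair overlap each other. The NF-kB site of CXCL1 was matched on both strands, shifted by 1 base, and the plus-strand match is shown. The TATA box letters TATAAA were in 10 members (16.1%, against 12% of all promoters and 5.06% of those at 1 CPM or more), and the GC box GGGCGG in 39 (62.9%, against 44.6% and 72.1%). The AP-1 site TGANTCA was in 6 (9.68%, against 7.76% and 4.33%), the gamma-activated site TTCNNNGAA in 6 (9.68%, against 7.88% and 6.15%), and the CCAAT box in 23 (37.1%, against 35.7% and 36.3%). Other motifs were no more frequent among members than among genes at 1 CPM or more: the metal response element core TGCGCNC was in 16 (25.8%, against 20% and 32%), the E-box CACGTG in 6 (9.68%, against 7.43% and 10.5%) and the CRE core TGACGTC in 1 (1.61%, against 3.63% and 5.7%). The motifs were picked with the members known, and no test was made.

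Cytokines, acute-phase genes and regulators of NF-kB gave 5 members, at 0.339 to 0.707 times untreated at 8 h and 1.413 to 2.78 times untreated at 24 h. CSF1, the growth factor that macrophages need, was the most abundant member, at 412, 304 and 334 CPM in untreated cells, 192, 209 and 201 CPM at 8 h and 594, 649.7 and 583 CPM at 24 h. No libraries overlapped, and the spread was widest among the untreated ones. Its means were 350.3 ± 55.8 CPM (SD, n = 3) untreated, 200.4 ± 8.55 CPM at 8 h and 609 ± 35.6 CPM at 24 h. CEBPD, a transcription factor of the acute-phase response, was at 48, 29.1 and 32.2 CPM without TEPA, 12.8, 15.8 and 14.2 CPM after 8 h and 53.2, 57.4 and 55.2 CPM after 24 h. The highest untreated library lay just under the lowest at 24 h, and the 8 h libraries lay far below both. CXCL1, a chemokine that draws neutrophils and whose NF-kB site is printed above, was at 8.55, 2.84 and 4.33 CPM untreated, then 1.74, 2.1 and 1.49 CPM at 8 h and 7.5, 8.03 and 8 CPM at 24 h. Its 8 h libraries were below all others, but untreated replicate 1 was above every 24 h library, so that the 24 h increase rests on the other untreated replicates. SAA1, an acute-phase apolipoprotein, was at 4.89, 4.51 and 4.16 CPM in untreated cells, 2.63, 2.23 and 2.42 CPM at 8 h and 12, 13.6 and 12.1 CPM at 24 h, 5.18-fold higher at 24 h than at 8 h with all groups apart. BCL3, an IkB-family coactivator of NF-kB, lay closest to the limits, with ratios of 0.7066 and 1.413.

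A further 26 NF-kB and acute-phase genes came from a list also written with the members known. At 8 h, 24 of the 26 were below untreated, 12 of them at 0.71 or less (all genes, 8.55%). At 24 h, 18 were above untreated, with 3 past the upper limit and 3 at 0.71 or less (all genes, 9.31% and 7.34%). The 24 h counts past either limit were thus near the shares of all genes. Their median ratios were 0.729 and 1.12. The chemokine CXCL8 went from 12.1 to 3.24 and 13.7 CPM and the adhesion molecule ICAM1 from 40.5 to 20.4 and 51.6 CPM. The inhibitor NFKBIA was at 64.2, 52.9 and 107 CPM and the apoptosis inhibitor BIRC3 stood at 1.04 and 4.3 times untreated, both without passing the 8 h limit. The cytokine CSF2 was at 13.6, 4.58 and 10.2 CPM and IL1B at 1.43, 0.383 and 0.578 CPM, below untreated at both times.

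Genes of growth arrest, cell death and autophagy gave 8 members: PINK1, YPEL5, GABARAPL1, BMF, DEPP1, BBC3, KLF9 and YPEL2. Their decrease at 8 h was mild for all but a few, at 0.344 to 0.699 times untreated with a median of 0.675, and they stood at 1.57 to 2.36 times untreated at 24 h, with a median of 1.82. PINK1, the kinase that marks damaged mitochondria for removal, was at 73.2, 64.5 and 64.9 CPM in untreated cells, 44.4, 49.4 and 47.9 CPM at 8 h and 122, 119 and 116 CPM at 24 h. The groups were tight and did not overlap. Its means were 67.5 ± 4.92 CPM (SD, n = 3) untreated, 47.2 ± 2.57 CPM at 8 h and 119 ± 2.9 CPM at 24 h. GABARAPL1, an ATG8-family protein of the autophagosome, was at 16.3, 11.4 and 13.7 CPM without TEPA, 9.23, 9.44 and 9.49 CPM after 8 h and 30, 29 and 30.6 CPM after 24 h. Every 24 h library was near 30 CPM and no untreated library above 17 CPM. BMF and BBC3 encode BH3-only proteins that start apoptosis. BMF was at 11.8, 8.21 and 9.19 CPM untreated, then 6.36, 7.1 and 6.78 CPM at 8 h and 23.3, 22.6 and 23.1 CPM at 24 h. BBC3 (PUMA), a p53 target, had means of 6.17 ± 1.18 CPM (SD, n = 3) untreated, 4.22 ± 0.353 CPM at 8 h and 9.77 ± 0.481 CPM at 24 h, with no overlap for either gene. KLF9, a glucocorticoid- and stress-responsive transcription factor, was at 7.97, 4.64 and 5.63 CPM in untreated cells, 2.97, 3.1 and 3.32 CPM at 8 h and 12.2, 11.6 and 13.6 CPM at 24 h, 3.97-fold higher at 24 h than at 8 h. DEPP1, an autophagy-linked FOXO target, was at 9.91, 3.93 and 5.68 CPM without TEPA, 2.21, 2.33 and 2.18 CPM after 8 h and 9.77, 11 and 9.82 CPM after 24 h. Its 8 h libraries lay near each other and far below the rest, while untreated replicate 1 lay inside the 24 h range. YPEL5 and YPEL2 belong to a family of small zinc-binding proteins linked to the cell cycle. YPEL5 was 1.5-fold lower and then 1.6 times untreated, and YPEL2 1.77-fold lower and 1.88 times untreated. Their relative YPEL3, no member, was at 11.7, 11.1 and 30.2 CPM, higher at 24 h with an 8 h ratio of 0.948.

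A list of energy-sensing and FOXO-linked growth arrest genes held 4 members (YPEL5, GABARAPL1, KLF9 and YPEL2), and a list of p53 targets held BBC3. Both lists were written with earlier results of these data known, so nothing is read from their counts. Of the 27 other genes of the first list that were tested, 11 were called lower and 5 higher at 8 h, and 5 lower and 15 higher at 24 h (edgeR, adjusted p under 0.05). Over all genes tested, 24.5% were called lower and 25.2% higher at 8 h, and 26.8% lower and 25.7% higher at 24 h. Called lower at 8 h and higher at 24 h were 6 of the 27 (all genes, 3.45%): CCNG2, RBL2, TP53INP1, TP53INP2, BTG1 and FBXO32. TP53INP1, a p53-induced regulator of autophagy and cell death, fell by 0.39 on the log2 scale at 8 h (SE 0.09, edgeR adjusted p = 0.00219) and was higher by 1.04 at 24 h (SE 0.08, adjusted p = 4.67e-08). FBXO32, the ubiquitin ligase atrogin-1, fell by 0.76 (SE 0.08, edgeR adjusted p = 2.66e-06) and was then 0.25 above untreated (SE 0.08, adjusted p = 0.0168). CCNG2, a cyclin of quiescent cells, fell by 0.49 (SE 0.13, edgeR adjusted p = 0.00403) and was then 0.41 above untreated (SE 0.12, adjusted p = 0.00809). TXNIP, which restrains glucose uptake, was higher at both times, by 1.24 and 1.37 on the log2 scale (edgeR adjusted p = 2.65e-09 and 3.68e-10). Of 20 further p53 targets tested, 4 were called lower and 7 higher at 8 h, and 7 lower and 8 higher at 24 h, with only CCNG1 called lower and then higher.

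**Figure D5:**
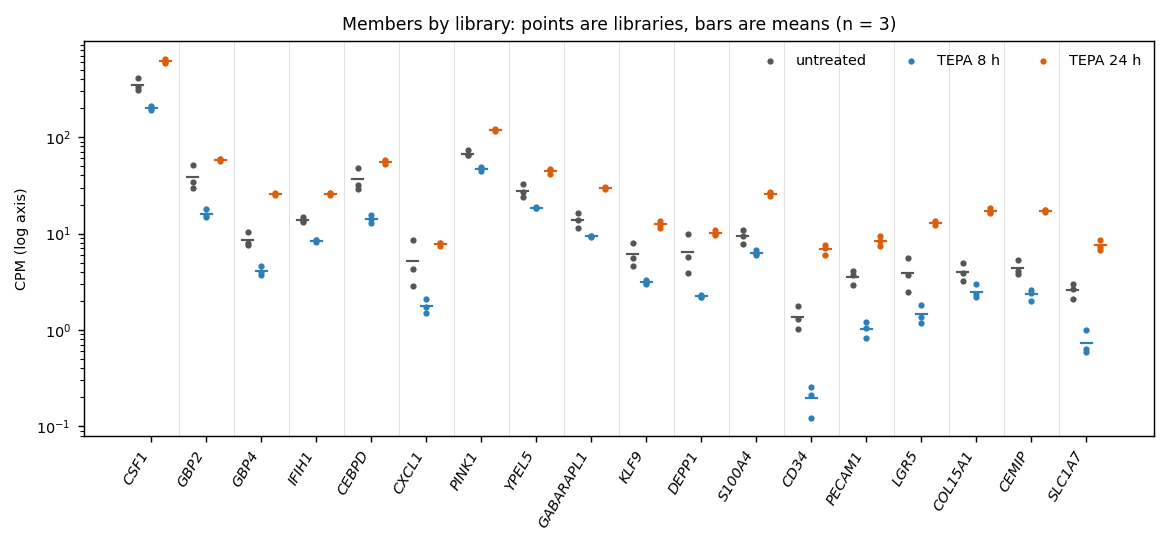
CPM of 18 members in each library on a log axis, untreated (grey), TEPA 8 h (blue) and TEPA 24 h (orange), with bars at the means of 3 replicates. For every gene the blue points lie below the grey ones, and the orange points lie above all grey ones except for CXCL1 and DEPP1, where untreated replicate 1 reaches the 24 h level.

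Surface receptors and adhesion proteins gave 11 members and the deepest decreases, at 0.145 to 0.684 times untreated at 8 h with a median of 0.371. CD34, a sialomucin of blood stem cells and vessel endothelium, was at 1.75, 1.29 and 1.03 CPM in untreated cells, 0.123, 0.257 and 0.213 CPM at 8 h and 6.02, 7.63 and 7.04 CPM at 24 h. It was the member with the lowest 8 h ratio and the highest 24 h ratio, and its groups were far apart. Its 8 h level rests on 5, 10 and 8 counts, so that the 35-fold rise from 8 h to 24 h carries a wide counting error. PECAM1 (CD31), an adhesion molecule of endothelium and leukocytes, was at 4.07, 2.92 and 3.68 CPM without TEPA, 0.835, 1.05 and 1.22 CPM after 8 h and 7.38, 8.43 and 9.33 CPM after 24 h. LGR5, a receptor for R-spondins that marks epithelial stem cells, was at 5.61, 2.47 and 3.68 CPM untreated, then 1.38, 1.82 and 1.17 CPM at 8 h and 12.2, 13.3 and 13.6 CPM at 24 h. In both, every 24 h library was far above every untreated one and every 8 h library below. NEDD9, a focal adhesion scaffold, followed at 2.37-fold lower and then 2.72 times untreated. KLRC2 and KLRC3, neighbouring receptor genes known from natural killer cells, were both lower at 8 h. KLRC2 was at 5.95, 4.3 and 4.06 CPM in untreated cells, 1.79, 1.74 and 1.59 CPM at 8 h and 9.53, 9.33 and 11.3 CPM at 24 h. KLRC3 had means of 1.12 ± 0.391 CPM (SD, n = 3) untreated, 0.359 ± 0.0837 CPM at 8 h and 1.63 ± 0.153 CPM at 24 h, with untreated replicate 1 within its 24 h range. KLRC2 and KLRC3 are closely similar copies. How reads shared between them were counted was not tested, so their values are uncertain. CLDN2, a tight junction claudin, was at 1.51, 0.774 and 1.08 CPM without TEPA, 0.197, 0.231 and 0.0798 CPM after 8 h and 1.16, 1.75 and 1.96 CPM after 24 h. It was 6.64-fold lower at 8 h, from 8, 9 and 3 counts, and untreated and 24 h libraries overlapped. SHISA2 and SHISA4, membrane proteins of a family that restrains receptor traffic, were more abundant. SHISA2 had means of 33.3 ± 1.34 CPM (SD, n = 3) untreated, 22.8 ± 0.042 CPM at 8 h and 64.7 ± 3.31 CPM at 24 h. SHISA4 had means of 22.8 ± 2.65 CPM (SD, n = 3) untreated, 12.8 ± 1.51 CPM at 8 h and 34.4 ± 1.85 CPM at 24 h, and the groups of both were apart. The leukocyte marker PTPRC was at 0.067, 0 and 0.066 CPM in the untreated, 8 h and 24 h means. A part of other cell types in the levels of these members was not tested.

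Matrix and secreted proteins gave 5 members, with a median of 2.32 times untreated at 24 h, the highest of the role groups. COL15A1, a basement membrane collagen, was at 4.92, 3.23 and 3.93 CPM in untreated cells, 2.97, 2.18 and 2.34 CPM at 8 h and 18.6, 16.8 and 16.4 CPM at 24 h. CEMIP, which breaks down hyaluronan, was at 5.26, 3.78 and 4.13 CPM without TEPA, 2.01, 2.41 and 2.58 CPM after 8 h and 16.9, 17.5 and 17.4 CPM after 24 h. Both had a modest decrease at 8 h, of 1.61-fold and 1.88-fold, and stood at 4.29 and 3.94 times untreated at 24 h, the highest ratios after CD34. CTSW, a cathepsin known from cytotoxic lymphocytes, was 2.47-fold lower and then 2.32 times untreated, CST2, a salivary cystatin, 1.65-fold lower and 2.11 times, and COL9A2, a cartilage collagen, 2.54-fold lower and 1.5 times, each without overlap.

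The calcium-binding S100 proteins gave 3 members that lie side by side in one cluster, S100A5, S100A4 and S100A3 (chr1:153537147-153541765, chr1:153543613-153550136 and chr1:153547329-153549258, all minus strand, hg38). S100A4, a promoter of tumour cell motility, was at 10.9, 7.74 and 9.34 CPM in untreated cells, 6.7, 6.16 and 5.96 CPM at 8 h and 24.5, 27 and 26.1 CPM at 24 h. The 24 h libraries were all far above the untreated range, and the 8 h libraries just below it. S100A3 was at 27.7, 21.6 and 24.6 CPM without TEPA, 12.2, 13.7 and 13.8 CPM after 8 h and 36.4, 39.1 and 36.4 CPM after 24 h, with a deeper decrease and a smaller increase. S100A5 was low, with means of 1.56 ± 0.0192 CPM (SD, n = 3) untreated, 1.06 ± 0.232 CPM at 8 h and 2.65 ± 0.775 CPM at 24 h. The gene models of S100A3 and S100A4 overlap on the same strand. How reads in the overlap were counted was not tested, so the values of both are uncertain. Among 7 other S100 genes at 1 CPM or more, 0 were past the 8 h limit and 1 past the 24 h limit. Of all genes, 8.55% and 9.31% were past these limits. The 7 genes had median ratios of 0.838 and 1.03. S100A6, next to S100A5, had ratios of 0.721 and 1.03.

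Transporters and channels gave 7 members. Of 206 solute carrier genes at 1 CPM or more, 5 were members (2.43%, against 0.68% of all genes). The whole class had median ratios of 0.982 and 1.05. SLC1A7, a glutamate transporter, was at 3, 2.08 and 2.65 CPM in untreated cells, 0.638, 1 and 0.585 CPM at 8 h and 6.73, 8.6 and 7.25 CPM at 24 h. It stood 10.2-fold higher at 24 h than at 8 h, second to CD34, with no overlap between groups. SLC6A19, a transporter of neutral amino acids, was at 2.98, 1.7 and 1.78 CPM without TEPA, 0.467, 0.539 and 0.478 CPM after 8 h and 2.96, 4.06 and 2.8 CPM after 24 h. It was 4.35-fold lower at 8 h, and untreated replicate 1 lay within its 24 h range. SLC15A3, a lysosomal histidine and peptide transporter, had means of 11.8 ± 1.44 CPM (SD, n = 3) untreated, 6.99 ± 0.26 CPM at 8 h and 20.7 ± 0.403 CPM at 24 h. SLC12A7, a potassium-chloride cotransporter, had 9.55 ± 2.36 CPM (SD, n = 3) untreated, 4.82 ± 0.832 CPM at 8 h and 14 ± 0.598 CPM at 24 h. In these, as in the amino acid transporter SLC38A4 (1.84-fold lower and then 1.79 times untreated), no libraries overlapped. ATP8A2, a phospholipid flippase next to SHISA2 on chromosome 13, and GRIK4, a kainate receptor subunit, were 1.56-fold and 1.5-fold lower at 8 h and 1.89 and 1.61 times untreated at 24 h.

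The role group of enzymes and oxygen binding held 11 members, all without overlap between groups at either time (all genes, 7.27%). STS, the steroid sulfatase that frees oestrogens and androgens from their sulfates, was the most abundant, at 65.3, 50.8 and 54 CPM in untreated cells, 37.6, 34.9 and 35.8 CPM at 8 h and 102, 101 and 112 CPM at 24 h. Its groups were clearly apart, with ratios of 0.637 and 1.85. NMNAT2, which makes NAD, was at 28.6, 19.8 and 22 CPM without TEPA, 10.5, 11.9 and 12.7 CPM after 8 h and 40.6, 43.2 and 45.8 CPM after 24 h. AIG1, a hydrolase of fatty acid esters, was at 35.3, 29.1 and 32.9 CPM untreated, then 22.4, 22.9 and 19.7 CPM at 8 h and 53.7, 54.4 and 55.7 CPM at 24 h. In both, the 24 h libraries lay well above the highest untreated one. HPGD, which inactivates prostaglandins, was 2.49-fold lower and then 2.05 times untreated. PADI3, an arginine deiminase, was at 2.1, 1.18 and 2.03 CPM in untreated cells, 0.516, 0.718 and 0.585 CPM at 8 h and 2.88, 3.26 and 2.97 CPM at 24 h. Myoglobin (MB), an oxygen-binding haem protein, was at 1.22, 1.33 and 1.53 CPM without TEPA, 0.688, 0.667 and 0.691 CPM after 8 h and 4.62, 4.7 and 3.58 CPM after 24 h. PADI3 was 5.01-fold and MB 6.31-fold higher at 24 h than at 8 h, where each library held only 21 to 28 counts of either gene. The rest of this group, ALDH6A1, B3GNT7, METTL7A, TGM5 and C15orf48, had 8 h ratios from 0.45 (METTL7A) to 0.681 (ALDH6A1). Their 24 h ratios ran from 1.47 (ALDH6A1) to 1.9 (METTL7A).

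Signalling, traffic and cytoskeletal genes gave 9 members. GNG2, a G protein gamma subunit, was at 31.4, 20.6 and 24.2 CPM in untreated cells, 16.2, 16.4 and 15.7 CPM at 8 h and 35.1, 36.5 and 39.6 CPM at 24 h. PAK6, a p21-activated kinase, was at 10.4, 10.5 and 11 CPM without TEPA, 6.61, 7.62 and 8.05 CPM after 8 h and 23.6, 24 and 23.1 CPM after 24 h. Neither had an overlap, and PAK6 had the tighter groups, with every 24 h library above 23 CPM and every untreated one under 12 CPM. PLPPR3, a lipid phosphatase-related membrane protein of neurons, and FBXO2, an F-box protein that recognises sugar chains, reached 3.62 and 3.32 times untreated at 24 h. FBXO2 had 8 h libraries that overlapped untreated ones, at 1.75, 1.1 and 0.851 CPM untreated, then 0.884, 0.769 and 0.399 CPM at 8 h and 3.73, 4.11 and 4.45 CPM at 24 h. SCIN, an actin-severing protein, overlapped at both times, with means of 1.1 ± 0.416 CPM (SD, n = 3) untreated, 0.67 ± 0.143 CPM at 8 h and 1.61 ± 0.347 CPM at 24 h. CDK18, RAB42, FHDC1 and UNC13A had ratios from 0.565 (UNC13A) to 0.682 (CDK18) at 8 h and from 1.42 (FHDC1) to 1.91 (UNC13A) at 24 h.

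Other regulators of gene expression gave 6 members. FOS, an immediate-early AP-1 subunit, varied most between replicates, at 12.8, 3.18 and 8.94 CPM in untreated cells, 6.46, 1.49 and 4.25 CPM at 8 h and 22.2, 25.7 and 17.2 CPM at 24 h. Its replicate 2 was low both untreated and at 8 h, the groups overlapped at 8 h, and every 24 h library was above every untreated one. EGR1, another immediate-early gene, was no member, at 0.7222 and 2.048 times untreated. The histone genes H2AC6 and H2BC21 were 2 of 16 histone genes at 1 CPM or more (12.5%, against 0.68% of all genes). Their ratios were 0.51 and 1.44 for H2AC6 and 0.662 and 1.71 for H2BC21. The homeobox gene HOXC10, the Helios factor IKZF2 and the translational repressor NANOS1 had 24 h ratios of 1.84, 1.46 and 1.65. Among the remaining members were the protein-coding TCP11L2, 2.85-fold lower and then 1.76 times untreated, with C10orf90 and IQCD, and 8 noncoding, pseudogene or clone-named loci. The divergent transcripts EDIL3-DT and SAP30-DT had 24 h ratios of 1.5 and 1.44. The pseudogene FAM3C2P was at 7.23, 11.1 and 8.11 CPM without TEPA, 4.71, 4.26 and 6.62 CPM after 8 h and 11.8, 26.1 and 9.64 CPM after 24 h, where the 24 h mean rests on replicate 2 and replicate 3 overlapped untreated cells. Of 102 TRIM and RNF ubiquitin ligases, 154 TMEM genes and 78 ribosomal protein genes at 1 CPM or more, 0 were members. Members were 0.68% of all genes at that level, so that 0 does not set classes of this size apart.

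Beside the thresholds, genes inside and outside differed little. At the 8 h limit, PAK6 (0.6978), PINK1 (0.6987), APOBEC3F (0.7018), BCL3 (0.7066) and HOXC10 (0.7099) lay just inside, and PRKCH (0.7158), EGR1 (0.7222) and MLXIPL (0.7242) just outside, with AL357075.3 and AC009549.1. At the 24 h limit, BCL3 (1.413), FHDC1 (1.415), H2AC6 (1.438), SAP30-DT (1.44) and CLDN2 (1.446) lay just inside, and TENT5C (1.397), H2AC11 (1.397), LEPR (1.392) and PNRC1 (1.392) just outside, with AC156455.1. Under the untreated minimum, ELF3 (0.9181 CPM) had ratios of 0.1953 and 2.501.

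In GENCODE 44 on hg38, 79 of the 84 members had a position, and 76 of these were protein-coding. They lay on 19 chromosomes, with 18 on chromosome 1 (22.8%, against 10.5% of all genes at 1 CPM or more) and 10 on chromosome 12 (12.7%, against 5.26%). Others held fewer of these members, with 0 on chromosomes 3 and 16 (against 5.75% and 4.4%) and 2 on chromosome 17 (2.53%, against 6.22%). In all, 13 members lay within 100000 bases of another member: GBP2 with GBP4, ATP8A2 with SHISA2, the 3 S100 genes, SLC12A7 with SLC6A19, APOBEC3F with APOBEC3G, and KLRC2 with KLRC3. No share over all genes is given beside this count, so nothing is read from it. The members were shorter, at a median of 23520 bases against 33310, with 7 exons against 9 in the canonical transcript. The most abundant member, CSF1, lies at chr1:109910242-109930992 on the plus strand, and CD34 at chr1:207880972-207911402 on the minus strand.

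The lists without members were mixed, beside 24.5% of all genes called lower and 25.2% higher at 8 h, and 26.8% lower and 25.7% higher at 24 h. Of 23 Notch receptors, ligands and HES/HEY genes tested, 9 were called lower and 4 higher at 8 h, and 13 lower and 1 higher at 24 h (edgeR, adjusted p under 0.05), none of them lower and then higher. Of 46 semaphorins, ephrins and their receptors, 18 were called lower at each time, and 8 and 14 higher. In this list PLXNA1, NRP1, ROBO1 and ROBO4 were called lower at first and higher by 24 h. ROBO4, an endothelial guidance receptor, fell by 0.40 on the log2 scale (SE 0.07, edgeR adjusted p = 0.000391) and was then 0.90 above untreated (SE 0.07, adjusted p = 4.35e-08). Of 16 clock genes, 6 were called lower and 4 higher at 8 h, and 4 lower and 9 higher at 24 h, with NR1D1 called lower and then higher. Of 47 Hedgehog and cilium genes, 14 were called lower at each time, and 9 and 10 higher, with BBS2 and BBS9 called lower and then higher. Of 38 polycomb and trithorax genes 22, of 38 DNA repair genes 16 and of 14 nuclear-retained RNAs 11 were called higher at 8 h, and of 31 epithelial junction genes 12 were called lower, with 0 of these lower and then higher. Of all 298 listed non-members tested, 176 were called at 8 h and 195 at 24 h in either direction. In all, 14 of the 298 were called lower and then higher, near the share of all genes (3.45%). These lists too were written with earlier results of these data known, so nothing is read from this count.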

How the data were processed

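RNA-Seq libraries of MDA-MB-231 cells, 3 untreated and 3 each at 8 h and 24 h of TEPA, were grouped by the labelled treatment. The authors checked reads with FastQC, aligned paired-end reads to hg38 with HISAT2 and counted them per gene name over exons, with strand used, with featureCounts and the Ensembl 103 annotation (tool versions are not given in the sources used here). The deposited values are raw counts per gene name for 59453 names, with 1 column for each library, and 0 columns were left out. Counting by gene name and exon can affect the counts of overlapping genes and similar copies, and this was not tested.

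From the counts, CPM used the column totals, and levels are means ± SD over 3 replicates. The members, the gene lists and the rule for naming were chosen with earlier results of these data known. The roles, the interferon, NF-kB and S100 lists and the motifs were written after the members had been seen. The naming rule took the 12 members of highest untreated CPM, the 10 of lowest 8 h ratio, the 10 of highest 24 h ratio, the 5 nearest each limit on either side and list members. Any other gene named was chosen after its values were seen.

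Tests used edgeR 4.0.16 in R 4.3.3: filterByExpr with a minimum count of 10 (16556 genes kept), TMM factors, 1 quasi-likelihood fit of all 9 libraries, and Benjamini-Hochberg adjustment over all genes tested at 0.05. They were tested on simulated data. Alternatives were DESeq2 1.42.0, its size factors, other filters and limits, fits of single pairs of groups, a block for the replicate number, and each library left out in turn. Positions are from GENCODE 44 on hg38 and promoters from RefSeq on GRCh38.p14. The other cell lines and assays of the study were not analysed here. Some genes of the lists are not reported here.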

Additional observations from a re-analysis of the deposited data

Results flagged for a closer look

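The direction relative to untreated cells was opposite at 8 h and 24 h, with no overlap of libraries at either time, in 75 of the 84 members (all genes, 7.27%), and the difference between these opposite directions follows from how the members were chosen. Of the 298 listed non-members tested, 14 were called lower at 8 h and higher at 24 h, near the share of all genes (3.45%). The lists were written with earlier results of these data known, so nothing is read from this count. The calls of these 14 genes were made by edgeR at an adjusted p under 0.05. All 3 untreated libraries entered both comparisons.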

How the results depend on the processing

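With ratio limits of 0.5 and 2 the rule found 11 genes in place of 84, and with an untreated minimum of 5 CPM it found 37. TMM and DESeq2 size factors gave 73 and 74 genes, all among the 84, library totals without mitochondrially encoded genes gave 80, an untreated minimum of 0.5 CPM gave 119, and group medians gave 94, of which 69 were shared. Leaving out 1 library gave 81 to 92 genes, with 62 of the 84 kept without untreated replicate 1 and 67 without untreated replicate 2, and leaving out a replicate number gave 86 to 98. Under these leave-one-out fits 76 to 81 members were called lower at 8 h, 73 to 82 higher at 24 h and 84 higher at 24 h than at 8 h. A log2 limit of 0.5 added to the adjusted p lowered the number of listed non-members called from 176 to 55 at 8 h and from 195 to 77 at 24 h. The other counts, apart from that of the block below, stayed within 1.5 times the reported ones.

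The replicate numbers showed no clear pairing of the libraries. Correlations of deviations from the group means ran from -0.152 to 0.168 for the same number and from -0.317 to 0.259 for different numbers. With 3 libraries in a group, this check cannot exclude pairing. When each same-numbered triple had to meet the limits (a replicate block), 26 genes remained. In the edgeR fit with the replicate block 81, 79 and 84 members were called, and 170 and 192 listed non-members.

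Depth limits the lowest members: 21 had under 30 counts in some library, and the lowest count was 3, for CLDN2 at 8 h.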
